A study of Homo sapiens with 6 samples.

Results

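Trypsin-like serine proteases of the epithelial cell surface, secreted kallikreins and their Kunitz inhibitors were examined in AsPC-1 cells with and without an MMP28 lentivirus. The members were the rows of the deposited table named ST14, PRSS8, TMPRSS2, TMPRSS4, PRSS22, KLK6, KLK10, KLK11, SPINT1 and SPINT2, which are 10 of 58735 genes. The AsPC-1 line is widely used and derives from a human pancreatic cancer. RNA was sequenced from 3 libraries of cells that received an empty lentivirus (Vector) and 3 libraries of cells that received a lentivirus with the MMP28 coding sequence (OE-MMP28). MMP28 encodes a secreted matrix metalloproteinase. The study's methods describe a vector with GFP and puromycin resistance and a puromycin selection of stably infected cells. Both groups are therefore pools of selected cells of a single line, and the labels do not say whether the libraries of a group came from separate cultures, so p-values measure the spread between these libraries only.

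Serine proteases of this kind are made as inactive zymogens and are activated by a cut at the start of the catalytic domain. ST14 encodes matriptase, which is anchored in the membrane by its amino terminus and can activate prostasin (PRSS8), the precursor of hepatocyte growth factor and the receptor PAR2. Both Kunitz inhibitors, SPINT1 and SPINT2, are membrane proteins that block matriptase and related enzymes, and in epithelia they are usually made together with their targets. Kallikreins are secreted relatives whose genes lie side by side on chromosome 19 and are expressed in many glandular epithelia and in carcinomas.

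Total counts ranged from 13633249 to 16691458 per library. MMP28 itself lay between 5.17 and 9.11 FPKM in the Vector libraries and between 13.1 and 15.1 FPKM in the OE-MMP28 libraries (FPKM, the fragment count scaled to gene length and library size), and its log2 fold change was 0.90 (adjusted p = 0.00226, edgeR). The 5 ductal epithelial markers examined (EPCAM, KRT7, KRT8, KRT18 and KRT19) were all detected. Their summed level was 2561 to 3499 FPKM in the Vector libraries and 3503 to 4295 FPKM in the OE-MMP28 libraries. KRT7 was low, with 0.597 to 1.59 FPKM in the Vector libraries and 1.17 to 2.22 FPKM in the OE-MMP28 libraries. KRT19 rose with a log2 fold change of 0.71 (edgeR adjusted p = 0.00175). KRT7 (0.69), KRT8 (0.42), KRT18 (0.26) and EPCAM (-0.11) did not pass the test (edgeR adjusted p = 0.116, 0.0816, 0.241 and 0.617). Acinar markers summed to at most 0.242 FPKM in any library, and the defining trypsinogen gene PRSS1 had a count of 0 throughout. Leukocyte markers summed to at most 1.05 FPKM, nearly all of it CD14, while PTPRC, CD163 and CD3E had at most 1 count. CD14 had 30, 22 and 28 counts in the Vector libraries and 22, 17 and 19 in the OE-MMP28 libraries. Its groups did not overlap, but it did not pass the test (log2 fold change -0.60, edgeR adjusted p = 0.243). Endothelial markers summed to at most 0.293 FPKM. Among these, PECAM1 rose from between 0 and 4 counts to between 13 and 30 counts (log2 fold change 2.79, edgeR adjusted p = 0.00361), while CDH5 had at most 1 count. PECAM1 passed the filter on low counts through the OE-MMP28 libraries alone. Of the fibroblast markers, LUM had 33.8 to 56.9 FPKM, whereas COL1A1 and DCN had at most 11 counts and COL1A2 at most 1. The part of these markers in the results was not tested. In a bulk sample, fewer cells that express a gene and less RNA of that gene per cell cannot be told apart.

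All 10 members passed the filter on low counts and were tested among 15319 genes by the quasi-likelihood method of edgeR, with p-values adjusted by Benjamini-Hochberg over all of these genes. At an adjusted p under 0.05, PRSS22, ST14 and SPINT2 were higher and KLK6 was lower in the OE-MMP28 group, and the other 6 members did not pass. Over all genes tested, 11.7% were called higher and 11.6% lower. With a log2 fold change over 1 in size required as well, PRSS22 and KLK6 were left, against 7.38% of all genes. The groups did not overlap for PRSS22 and SPINT2 on the higher side, against a background of 19.5%, and for KLK6 on the lower side, against 18.6%. The median log2 fold change was 0.26 over the members and 0.014 over all genes tested. The calls differed in how far they depended on single libraries. PRSS22 and KLK6 stayed past the threshold in all 17 alternative fits, ST14 in 9 and SPINT2 in 8.

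Levels covered a wide range. In the Vector group ST14 was highest with 48.5 ± 14.1 FPKM (SD, n = 3), followed by KLK10 with 44.5 ± 6.802 FPKM and SPINT2 with 40.5 ± 5.48 FPKM. These 3 overlapped between neighbours in the order, and the same was true of KLK11 (23.0 ± 8.80 FPKM), SPINT1 (17.04 ± 2.31 FPKM) and KLK6 (12.7 ± 3.22 FPKM). PRSS22 (3.56 ± 1.12 FPKM) and TMPRSS2 (1.31 ± 0.445 FPKM) stood apart from their neighbours on both sides. PRSS8 and TMPRSS4 were at the bottom with 0.578 ± 0.268 and 0.421 ± 0.190 FPKM. In the OE-MMP28 group SPINT2 ranked above KLK10, PRSS22 above KLK6 and TMPRSS4 above PRSS8, and the other 4 members kept their rank. The order depends on the deposited gene lengths by which FPKM divides, such as 4350 bases for ST14 and 5199 for SPINT2. In counts, SPINT2 (3527, 3012 and 2622 in Vector replicates 1, 2 and 3) was at the level of ST14 (2869, 3793 and 2434).

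**Figure D1:**
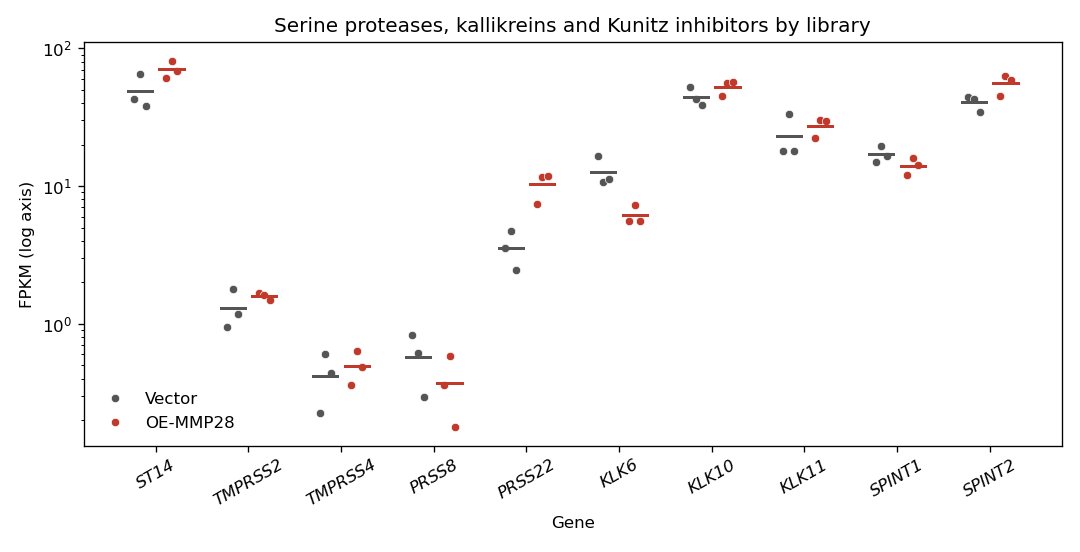
FPKM of the 10 members on a log axis in each of the 3 Vector libraries (grey) and 3 OE-MMP28 libraries (red), with the group mean as a line. The groups are separate for PRSS22, KLK6 and, narrowly, SPINT2, where the highest Vector library lay at 44.4 and the lowest OE-MMP28 library at 45.0 FPKM.

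The largest rise among the members was that of PRSS22. PRSS22 (ENSG00000005001, chromosome 16, 2852727 to 2858170, minus strand, GRCh38) encodes tryptase epsilon, a secreted trypsin-like protease of airway and other epithelia. It had 3.56, 4.68 and 2.44 FPKM in Vector replicates 1, 2 and 3, and 7.44, 11.7 and 11.7 FPKM in OE-MMP28 replicates 1, 2 and 3. Every OE-MMP28 library lay above every Vector library, and OE-MMP28 replicate 1 was the lowest of its group. Its log2 fold change was 1.54 (SE 0.23, adjusted p = 1.00e-04), a 2.92-fold rise, and over the alternative fits it ranged from 1.29 to 1.79 with adjusted p between 1.64e-11 and 0.0260.

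Of the protease genes beside PRSS22, PRSS33 was called higher and PRSS21 and PRSS27 did not pass the test. PRSS33, which encodes another trypsin-like serine protease, was not in the gene lists and was added after its values were seen. It had 1, 3 and 5 counts in Vector replicates 1, 2 and 3, and 20, 33 and 41 counts in OE-MMP28 replicates 1, 2 and 3. The groups did not overlap, and its log2 fold change was 3.18 (SE 0.54, edgeR adjusted p = 0.0003225), with the call kept in all 17 alternative fits. PRSS33 passed the filter on low counts through the OE-MMP28 libraries alone, so its call is no independent support for a rise. PRSS21, which encodes the GPI-anchored protease testisin and lies in the same group of genes on chromosome 16, had 56.1, 67.0 and 59.0 FPKM in the Vector libraries and 49.99, 68.9 and 78.9 FPKM in the OE-MMP28 libraries. Its log2 fold change was 0.13 (adjusted p = 0.612). PRSS27 had a log2 fold change of 0.36 (adjusted p = 0.643) from at most 14 counts per library. The FPKM ratio of PRSS22 to PRSS21 was 0.0583 ± 0.0149 (SD, n = 3) in the Vector group and 0.156 ± 0.0118 in the OE-MMP28 group, a pair chosen after its values were seen. The antisense gene AC003965.2, which covers 1.22% of the exon length of PRSS22, had a log2 fold change of 1.39 (adjusted p = 0.0539) from at most 25 counts, and whether counting used the strand is not given in the sources used here. ZG16B, the nearest tested gene on the other side, had a log2 fold change of 0.086 (adjusted p = 0.813). Within 10 Mb of PRSS22 the 224 other genes tested had a median log2 fold change of 0.26, and 160 lay above 0. Of them, 49 or 21.9% were called higher and 5 lower, where 11.7% and 11.6% of all genes tested were called.

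ST14 (ENSG00000149418, chromosome 11, 130159562 to 130210376, plus strand), the matriptase gene, had 43.1, 64.5 and 37.97 FPKM in Vector replicates 1, 2 and 3, and 61.3, 81.2 and 68.1 FPKM in OE-MMP28 replicates 1, 2 and 3. Vector replicate 2 lay above OE-MMP28 replicate 1, so the groups overlapped. The log2 fold change was 0.54 (SE 0.18, adjusted p = 0.0336), a 1.46-fold rise. The call depended on single libraries. The adjusted p was 0.0987 without Vector replicate 1, 0.194 without Vector replicate 3, 0.215 without OE-MMP28 replicate 2 and 0.0744 without OE-MMP28 replicate 3. It was 0.0550 with upper-quartile scaling, 0.161 with limma on log2(FPKM + 1) and 0.153 on log2(FPKM + 0.1), and 0.000681 without Vector replicate 2, where the log2 fold change was 0.80.

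The genes around ST14 were higher in the OE-MMP28 group as well. Of the 75 other genes tested within 10 Mb, 35 or 46.7% were called higher and 3 lower, and 66 had a log2 fold change above 0. Their median was 0.60, a value that the window of only 0.72% of all genes tested reached or passed. The nearest tested genes were APLP2 with a log2 fold change of 0.43 (adjusted p = 0.0287) and ZBTB44 with 0.28 (adjusted p = 0.209). With the local median taken out as an offset, ST14 had a log2 fold change of -0.06 (adjusted p = 0.871). Relative to the median of the genes within 10 Mb, which the offset subtracts by construction, ST14 therefore did not rise. Nearer genes varied. From TMEM45B to ADAMTS15, TMEM45B had a log2 fold change of 0.66, NFRKB 0.07, PRDM10 0.03, AP002986.1 -0.04 and ADAMTS15 0.27. Of these, only TMEM45B lay above ST14. The next tested gene beyond TMEM45B, BARX2, had 1.79 (edgeR adjusted p = 2.64e-05). Beyond ADAMTS15 came LINC02551 with 0.86, AP003486.1 with 0.25 and SNX19 with 0.67 (edgeR adjusted p = 0.402, 0.393 and 0.00383). BARX2, LINC02551 and SNX19 thus lay above ST14 and AP003486.1 below it. The part of the region in the rise of ST14 was otherwise not tested. For PRSS22 the same offset left 1.29.

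**Figure D2:**
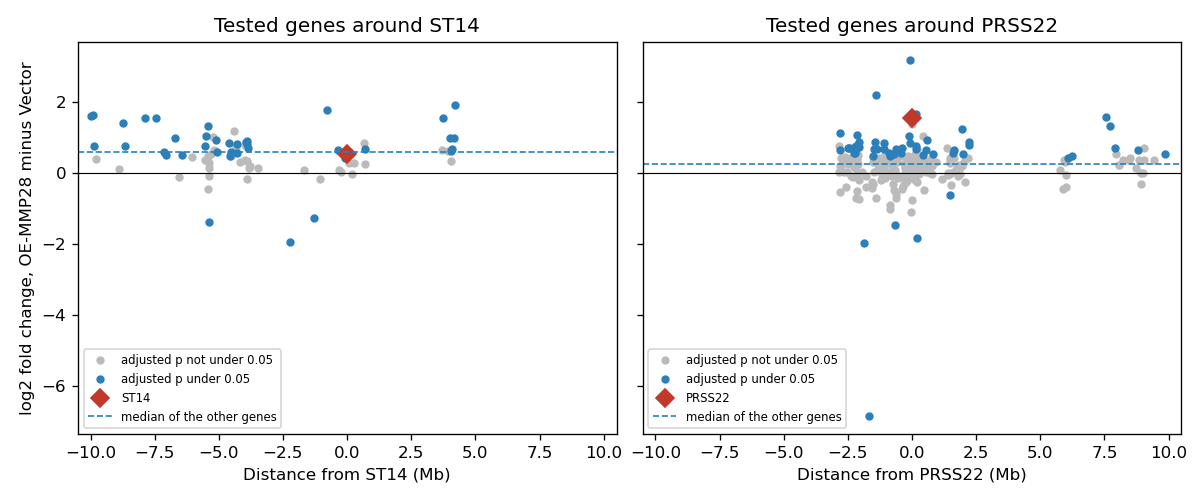
Log2 fold change (OE-MMP28 minus Vector) of tested genes by distance from ST14 (left) and PRSS22 (right) in Mb, with genes at an adjusted p under 0.05 in blue, the member as a red diamond and the median of the other genes as a dashed line. ST14 sits close to the median of the other genes within 10 Mb (0.60), whereas PRSS22 at 1.54 lies far above that of its own window (0.26).

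Neither transmembrane protease of the TMPRSS family passed the test. TMPRSS2 (ENSG00000184012, chromosome 21, 41464551 to 41531116, minus strand), which primes several viral surface proteins and is under androgen control in prostate, had 0.941, 1.802 and 1.18 FPKM in the Vector libraries and 1.68, 1.61 and 1.49 FPKM in the OE-MMP28 libraries. The OE-MMP28 values lay inside the range of the Vector values. For TMPRSS2 the log2 fold change was 0.30 (SE 0.23, adjusted p = 0.382), with a 95% interval from -0.19 to 0.79. Beside TMPRSS2, LINC00479 rose with a log2 fold change of 1.23 (adjusted p = 0.0211) and MX1 had 0.36 (adjusted p = 0.389). TMPRSS4 (ENSG00000137648, chromosome 11, 118077012 to 118121890, plus strand), found at raised levels in pancreatic and other carcinomas, had 0.224, 0.602 and 0.436 FPKM against 0.362, 0.634 and 0.484 FPKM. Its log2 fold change of 0.25 (SE 0.32, adjusted p = 0.617, 95% interval -0.42 to 0.92) lay below the median of 0.50 of the 136 other genes within 10 Mb, 60 of which were called higher. Its direction turned without Vector replicate 1 (-0.09) and with the local-median offset (-0.25). Its tested neighbours CEP164 and MPZL3 had log2 fold changes of 0.21 and -0.11 (adjusted p = 0.319 and 0.713).

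PRSS8 (ENSG00000052344, chromosome 16, 31131433 to 31135762, minus strand) encodes prostasin, the membrane-anchored partner of matriptase in many epithelia. It was scarce, with 38, 25 and 13 counts in Vector replicates 1, 2 and 3 and 17, 28 and 9 counts in OE-MMP28 replicates 1, 2 and 3. In FPKM these were 0.826, 0.615 and 0.293 against 0.357, 0.587 and 0.178. The groups overlapped, and the log2 fold change was -0.62 (SE 0.46, adjusted p = 0.350) with a 95% interval from -1.57 to 0.33. The tested neighbours of PRSS8, KAT8 and PRSS36, had log2 fold changes of 0.44 (adjusted p = 0.0555) and 0.49 (adjusted p = 0.478). The antisense gene AC009088.3 covers 11.9% of the exon length of PRSS8 and had 0 counts.

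**Figure D3:**
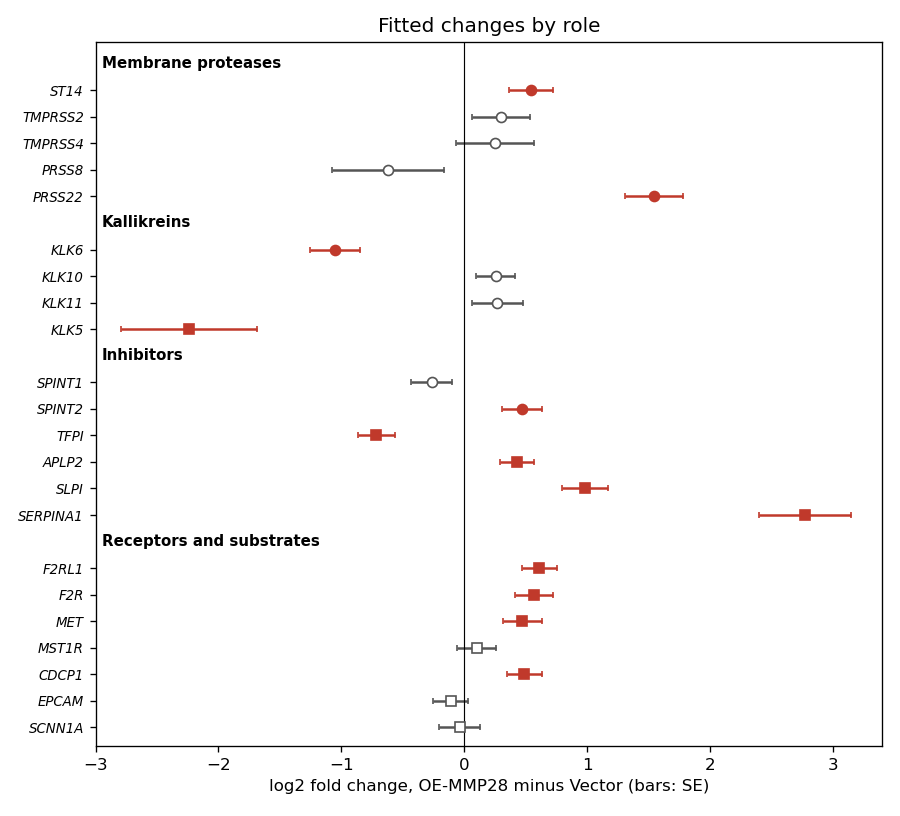
Log2 fold change (OE-MMP28 minus Vector) with SE for the 10 members (circles) and for related genes (squares), grouped by role; red filled symbols have an adjusted p under 0.05. PRSS22 (1.54) and KLK6 (-1.05) show the largest changes among the members, and KLK5 (-2.24) and SERPINA1 (2.77) among the related genes plotted. KLK5 and SERPINA1 passed the filter on low counts only through the group where they were higher. PRSS33 (3.18) is not plotted.

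Of the 3 kallikreins, KLK6 was lower in the OE-MMP28 group and KLK10 and KLK11 did not pass the test. KLK6 (ENSG00000167755, chromosome 19, 50958631 to 50969673, minus strand), a trypsin-like kallikrein also known as neurosin, had 16.5, 10.6 and 11.2 FPKM in Vector replicates 1, 2 and 3, and 5.54, 7.28 and 5.53 FPKM in OE-MMP28 replicates 1, 2 and 3. All 3 OE-MMP28 libraries lay below all 3 Vector libraries. Its log2 fold change was -1.05 (SE 0.20, adjusted p = 0.000998), and over the alternative fits it ranged from -1.21 to -0.85 with adjusted p between 4.91e-06 and 0.0342.

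KLK10 (ENSG00000129451, chromosome 19, 51012739 to 51020175, minus strand) was the most abundant kallikrein, with 52.0, 42.9 and 38.7 FPKM in the Vector libraries and 44.9, 56.1 and 57.1 FPKM in the OE-MMP28 libraries. Its log2 fold change was 0.26 (SE 0.16, adjusted p = 0.253, 95% interval -0.07 to 0.58). KLK11 (ENSG00000167757, chromosome 19, 51022216 to 51028039, minus strand) had 17.9, 33.1 and 17.9 FPKM against 22.4, 30.1 and 29.7 FPKM. Vector replicate 2 was the highest library of all 6 for this gene. The log2 fold change of KLK11 was 0.27 (SE 0.21, adjusted p = 0.374, 95% interval -0.16 to 0.70), and without Vector replicate 2 it was 0.63 with an adjusted p of 0.0109.

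The 3 kallikreins lie close to each other, and the sequences before their RefSeq starts are shown because KLK6 fell and the others did not pass the test. RefSeq (GRCh38.p14) held a promoter entry for 4 of the 10 members, namely KLK6, KLK10, KLK11 and SPINT1. The 250 bases before the RefSeq start of each kallikrein are printed below on the strand of the gene, 5′ to 3′, from chr19:50969592-50969841 (KLK6), chr19:51019862-51020111 (KLK10) and chr19:51027647-51027896 (KLK11), all on the minus strand. Capitals mark matches on either strand to TATAAA (the TATA box), GGGCGG (the GC box), TGANTCA (the AP-1 site) or CACCTG (an E-box).
KLK6: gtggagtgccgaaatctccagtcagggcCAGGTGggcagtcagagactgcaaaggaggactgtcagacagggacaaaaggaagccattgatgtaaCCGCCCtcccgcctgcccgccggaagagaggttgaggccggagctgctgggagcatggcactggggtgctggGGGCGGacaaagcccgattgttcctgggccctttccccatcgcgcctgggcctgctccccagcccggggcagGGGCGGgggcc
KLK10: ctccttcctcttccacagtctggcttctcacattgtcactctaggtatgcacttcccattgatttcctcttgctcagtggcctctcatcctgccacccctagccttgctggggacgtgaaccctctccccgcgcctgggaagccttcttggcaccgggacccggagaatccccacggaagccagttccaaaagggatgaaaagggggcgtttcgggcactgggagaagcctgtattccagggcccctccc
KLK11: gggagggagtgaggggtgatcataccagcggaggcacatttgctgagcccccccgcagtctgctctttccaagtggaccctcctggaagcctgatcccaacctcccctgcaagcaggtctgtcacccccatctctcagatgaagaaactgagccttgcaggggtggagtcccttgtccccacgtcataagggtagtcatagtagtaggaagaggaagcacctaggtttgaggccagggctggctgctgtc
The KLK6 window held 3 matches to GGGCGG, which begin 155, 83 and 11 bases before the start, and 1 match to CACCTG at 222 bases, whereas the KLK10 and KLK11 windows held no match to any of the 4 motifs. Over the 35116 RefSeq promoters of the same length, 42.6% held GGGCGG, 17.5% CACCTG, 10.7% TATAAA and 6.57% TGANTCA. The GC content of the windows was 66.8% for KLK6, 59.2% for KLK10 and 58.4% for KLK11. The SPINT1 window (chr15:40843798-40844047, plus strand) held 3 matches to GGGCGG and had a GC content of 80.4%. The RefSeq start differs from the end of the gene in the deposited coordinates. By those coordinates the KLK10 and KLK11 windows lie wholly inside their genes, and the KLK6 and SPINT1 windows only in part. The windows are therefore not alike in position, and the matches describe the reference sequence only.

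The kallikrein cluster spans 265 kb and holds 15 genes, of which 7 had enough counts to be tested. From the centromeric end, KLK1 was followed by KLK15, KLK3, KLK2 and KLK4, none of which had any count. KLK5, whose product starts a kallikrein cascade in skin, fell from 22, 12 and 23 counts in the Vector libraries to 5, 1 and 7 counts in the OE-MMP28 libraries, with a log2 fold change of -2.24 (SE 0.55, adjusted p = 0.00594). KLK5 lost the call in limma on log2(FPKM + 0.1), with an adjusted p of 0.0536. It passed the filter on low counts through the Vector libraries alone, so its call is no independent support for a fall. KLK6, the next gene, was the other gene of the cluster to be called lower. KLK7, which encodes a chymotrypsin-like kallikrein, had a log2 fold change of 0.04 (adjusted p = 0.921). KLK8 had -0.58 (SE 0.24, adjusted p = 0.0880) with groups that did not overlap, and 40.1% of its exons is shared with the sense gene AC011473.4, which had at most 1 count. KLK9, between KLK8 and KLK10, was at 0 counts. At the other end of the cluster, KLK12, KLK13 and KLK14 had no more than 15 counts per library and were not tested.

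The FPKM ratio of KLK6 to KLK10, chosen after its values were seen, was 0.317, 0.248 and 0.289 in the Vector libraries and 0.123, 0.130 and 0.0970 in the OE-MMP28 libraries. Every OE-MMP28 library lay below every Vector library. The 384 other genes tested within 10 Mb of KLK6 had a median log2 fold change of 0.059, with 29 called higher and 24 lower. The antisense gene AC011483.2 covers 20.3% of the exon length of KLK6 and 12.2% of that of KLK5 and had at most 1 count in any library. How reads in shared exon parts were counted is not given in the sources used here. A low count of the overlapping gene therefore does not show that KLK6, KLK5 or KLK8 were unaffected. AC011473.2, antisense to 6.23% of the exon length of KLK10, had 0 counts. CTU1, the tested gene beyond KLK11, had a log2 fold change of 0.18 (adjusted p = 0.702).

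**Figure D4:**
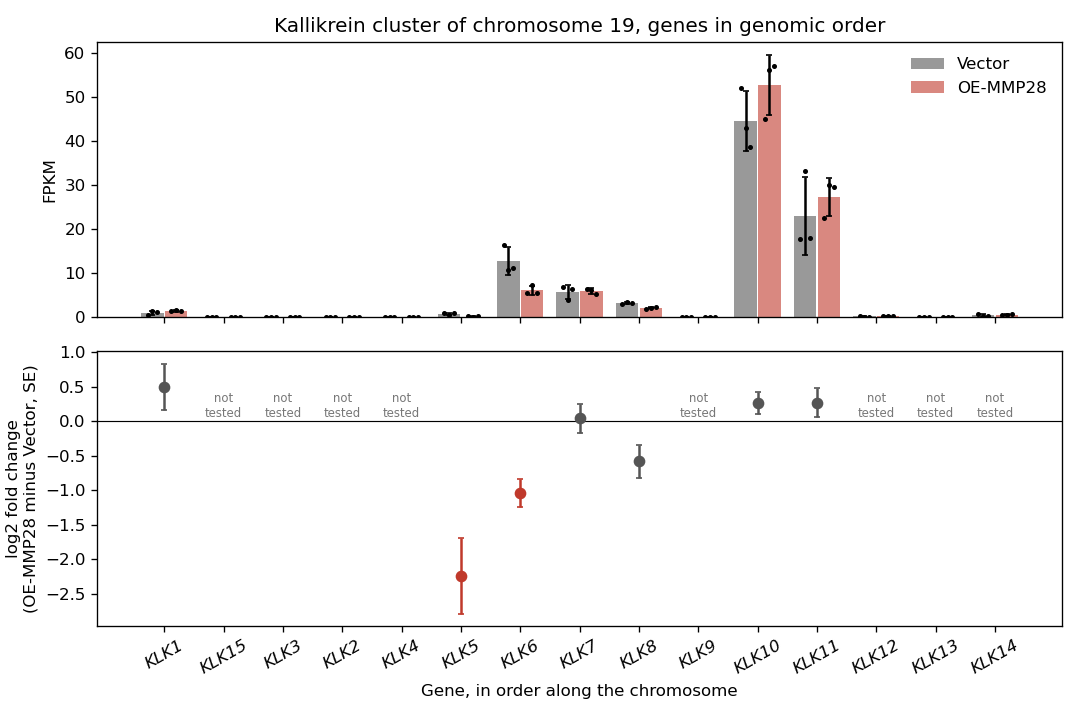
Upper panel, FPKM of the 15 kallikrein genes in genomic order as group means with SD (bars) and single libraries (points). Lower panel, log2 fold change with SE for the 7 genes tested, where the adjacent genes KLK5 (-2.24) and KLK6 (-1.05) are the ones with an adjusted p under 0.05 (red).

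Of the Kunitz inhibitors, SPINT2 was called higher and SPINT1 did not pass the test. SPINT2 (ENSG00000167642, chromosome 19, 38244035 to 38292614, plus strand) had 44.4, 42.9 and 34.2 FPKM in Vector replicates 1, 2 and 3, and 45.0, 62.5 and 59.2 FPKM in OE-MMP28 replicates 1, 2 and 3. OE-MMP28 replicate 1 was close to the upper end of the Vector libraries, and OE-MMP28 replicates 2 and 3 were well above them. Its log2 fold change was 0.47 (SE 0.16, adjusted p = 0.0394), a 1.39-fold rise. The adjusted p was 0.216 without Vector replicate 3, 0.224 without OE-MMP28 replicate 2 and 0.117 without OE-MMP28 replicate 3. In 6 further alternatives that ended the call it lay between 0.0520 and 0.151. The 296 other genes tested within 10 Mb of SPINT2 had a median log2 fold change of 0.067, and its neighbours PPP1R14A and C19orf33 had 0.59 (adjusted p = 0.0940) and 0.65 (adjusted p = 0.492). The sense gene AC011479.1, which shares 4.66% of SPINT2 exons, had 0 counts.

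SPINT1 (ENSG00000166145, chromosome 15, 40844018 to 40858207, plus strand) had 14.98, 19.5 and 16.6 FPKM in the Vector libraries and 11.9, 16.01 and 14.2 FPKM in the OE-MMP28 libraries, with overlap. The log2 fold change was -0.26 (SE 0.17, adjusted p = 0.265), with a 95% interval from -0.61 to 0.08. It was below 0 in all 17 alternative fits, from -0.39 to -0.16. The antisense gene SPINT1-AS1, which covers 2.82% of the exon length of SPINT1, had a log2 fold change of -0.75 (adjusted p = 0.118). RHOV on the other side had -0.998 (adjusted p = 0.142).

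Levels per length allowed proteases to be set against their inhibitors within a library. ST14 exceeded SPINT1 by a ratio of 2.88, 3.30 and 2.29 in Vector replicates 1, 2 and 3, while the OE-MMP28 libraries gave 5.13, 5.07 and 4.79. All OE-MMP28 ratios lay above all Vector ratios, with a difference of 0.84 on the log2 scale and p = 0.1 in the two-sided exact permutation test, the smallest p that 3 against 3 libraries allow. Leaving out any library kept the difference between 0.70 and 0.96. The ratio of PRSS8 to SPINT1 was 0.0348 ± 0.0190 (SD, n = 3) and 0.0264 ± 0.0125 (exact permutation p = 0.6), and that of PRSS8 to SPINT2 0.0138 ± 0.00504 and 0.00677 ± 0.00335 (exact permutation p = 0.2), so that prostasin transcripts were rare beside both inhibitors in either group. The ratio of SPINT2 to SPINT1, added after its values were seen, was 2.96, 2.19 and 2.06 in the Vector libraries and 3.77, 3.90 and 4.17 in the OE-MMP28 libraries. The size of each ratio depends on the gene lengths used, which are the same in all libraries. These ratios concern transcripts and carry no information on enzyme activity.

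**Figure D5:**
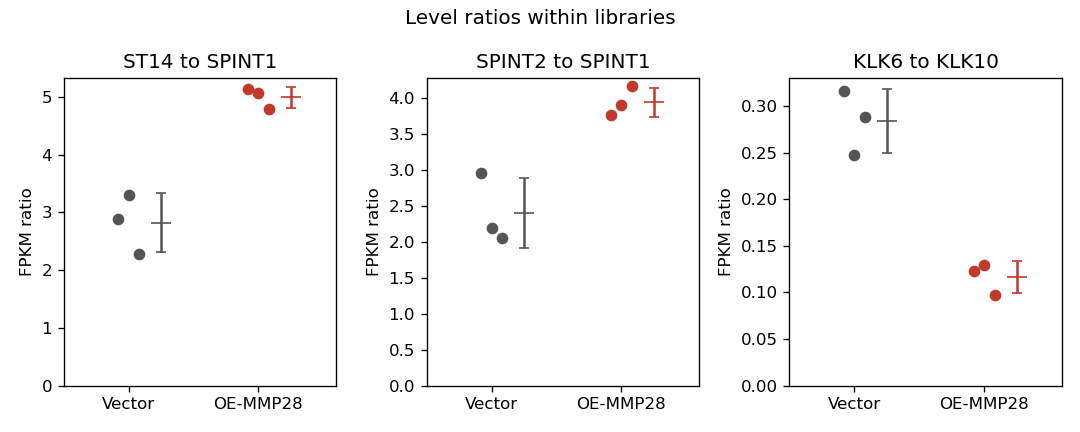
FPKM ratios within each library for ST14 to SPINT1, SPINT2 to SPINT1 and KLK6 to KLK10, as single libraries (points) with mean and SD beside them. The 3 OE-MMP28 libraries lie above the Vector libraries in the ratios to SPINT1 (at least 4.79 against at most 3.30, and at least 3.77 against at most 2.96) and below them in the last (at most 0.130 against at least 0.248).

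Other membrane and related serine proteases were mostly silent or did not pass the test. Of 23 genes in this list, 15 did not pass the filter on low counts, 3 of which had a count of 0 throughout, and none of the 8 tested was called at an adjusted p under 0.05 by edgeR, in either direction. The count was also 0 at an unadjusted p under 0.05 and with DESeq2 or limma voom. The median log2 fold change of the 8 was 0.16. The abundant ones were PRSS3, which encodes mesotrypsin and had 89.5 ± 5.38 and 107 ± 13.9 FPKM (SD, n = 3; log2 fold change 0.27, adjusted p = 0.211), PRSS21 (60.7 ± 5.62 and 65.9 ± 14.7 FPKM) and PRSS23 (20.1 ± 2.73 and 21.1 ± 1.52 FPKM). PRSS3 shares sequence with other trypsinogen copies, so its value is uncertain. HPN, which encodes the membrane protease hepsin, had 1 count in OE-MMP28 replicate 3 and 0 elsewhere.

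Among other serine protease inhibitors with Kunitz, Kazal, WAP or serpin folds, 7 of 24 were tested, with 3 called higher and 1 lower, where 11.7% and 11.6% of all genes tested were called. SERPINA1, the gene of alpha-1-antitrypsin, rose from 5, 12 and 9 counts in the Vector libraries to 59, 68 and 73 counts in the OE-MMP28 libraries, with a log2 fold change of 2.77 (SE 0.38, adjusted p = 2.94e-05). SERPINA1 passed the filter on low counts through the OE-MMP28 libraries alone, so its call is no independent support for a rise. SLPI, a secreted WAP inhibitor of neutrophil elastase, rose from 21.0, 24.2 and 17.1 to 43.7, 34.3 and 44.0 FPKM, with a log2 fold change of 0.98 (SE 0.19, adjusted p = 0.000941). Both kept the call in all 17 alternative fits. APLP2, which holds a Kunitz domain and is the neighbour of ST14, rose by a log2 fold change of 0.43 (adjusted p = 0.0287), but had -0.15 (adjusted p = 0.508) with the local-median offset and lost the call without Vector replicate 3 (0.152), OE-MMP28 replicate 1 (0.0925) and OE-MMP28 replicate 2 (0.127). TFPI, the Kunitz inhibitor of the tissue factor pathway, fell from 11.6, 14.3 and 14.4 to 9.34, 7.85 and 7.21 FPKM, with a log2 fold change of -0.71 (adjusted p = 0.00232), and -0.38 (adjusted p = 0.106) with that offset.

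Of 21 receptors and substrates of these proteases 12 were tested, with a median log2 fold change of 0.25. By edgeR 4 were called higher and 0 lower, beside 11.7% and 11.6% of all genes tested. The count of lower genes was also 0 at an unadjusted p under 0.05 and with DESeq2 or limma voom. PLAU, the urokinase gene, had a log2 fold change of 0.45 (edgeR adjusted p = 0.0706). F2RL1, which encodes the receptor PAR2 that matriptase and several kallikreins can cleave, had 80.0, 74.2 and 70.6 FPKM in the Vector libraries and 123, 111 and 106 FPKM in the OE-MMP28 libraries. Its groups were far apart, and its log2 fold change of 0.61 (SE 0.14, adjusted p = 0.00376) kept the call in all 17 alternative fits. F2R, the gene of the thrombin receptor PAR1, rose by 0.57 on the log2 scale (edgeR adjusted p = 0.0122). F2R kept the call in 14 of 17 alternative fits. It lost the call without OE-MMP28 replicate 2 (adjusted p = 0.0844) and in both limma fits on FPKM.

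The calls of the other receptors and substrates rested on single libraries or were not made. CDCP1, a membrane protein that matriptase and other trypsin-like proteases can cleave, rose with a log2 fold change of 0.49 (adjusted p = 0.0180), and its adjusted p was 0.0759 without Vector replicate 3, 0.0521 without OE-MMP28 replicate 1 and 0.0987 without OE-MMP28 replicate 2. MET, the receptor of hepatocyte growth factor, rose with a log2 fold change of 0.47 (adjusted p = 0.0338), and its adjusted p was 0.0799 without Vector replicate 2, 0.0664 without Vector replicate 3, 0.144 without OE-MMP28 replicate 1 and 0.175 without OE-MMP28 replicate 2. Its ligand HGF had at most 1 count in any library. MST1R, the related receptor RON, had a log2 fold change of 0.10 (adjusted p = 0.687) and EPCAM one of -0.11 (adjusted p = 0.617). SCNN1A, the alpha subunit of the epithelial sodium channel that prostasin activates, had 30.5 ± 6.43 and 29.5 ± 3.59 FPKM (SD, n = 3; log2 fold change -0.03, adjusted p = 0.910). The antisense gene LTBR covers 7.18% of the exon length of SCNN1A and had up to 1996 counts in a library. Whether counting used the strand is not given, so the part of LTBR in the SCNN1A value was not tested. The beta and gamma subunits SCNN1B and SCNN1G were at 0 counts throughout. In the smallest library such a count leaves room for 3 counts, or 0.220 CPM (counts scaled to library size).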

How the data were processed

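RNA of 6 libraries of AsPC-1 cells was analysed from 1 deposited table. The authors deposited raw read counts per gene, neither normalized nor pooled, and FPKM values, which scale fragments to gene length and library size. The submitters' processing notes list HISAT2 2.0.5 and featureCounts 1.5.0-p3. The strand setting, the treatment of multiply matching reads and the build are not given in the sources used here, but all 58735 identifiers and coordinates were the same as in GENCODE release 29 (GRCh38). The deposited table also held the authors' own fold changes and p-values for 27729 genes, which were not used. The number of unmapped per-sample columns was 0.

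Genes were kept by filterByExpr (minimum count 10, minimum total 15), scaled by TMM and compared between groups with edgeR 4.0.16 (R 4.3.3, quasi-likelihood, group as the only term, Benjamini-Hochberg over 15319 genes). Correlated deviations of same-numbered libraries were checked, and intervals are 95% intervals of the fitted log2 fold change. On simulated counts of 15319 genes, of which 200 were changed, the test recovered 74.4% of 2-fold and 92.7% of 4-fold changes. Of its calls, 5.06% were false. The data held far more called genes (3579), and smaller changes were not simulated, so these rates do not carry over directly. The alternatives were each library left out, the replicate number as a block, DESeq2 1.42.0, its size factors, upper-quartile scaling, no filter or a mean CPM of at least 1, limma 3.58.1 with voom or on log2(FPKM + 1) and log2(FPKM + 0.1) with a mean of at least 0.1 FPKM, no mitochondrial genes, and an offset for the median log2 fold change of the genes within 10 Mb on either side. The members, gene lists, partners and alternatives were chosen with earlier results of these data known. The text names all members, set partners, called genes of each list (at most 6), nearest tested genes of each member and genes that overlap a member's exons, and PRSS33 was added after its values were seen. The limits given for counts of 0 include counting error alone, since no molecular identifiers separate PCR copies.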

Additional observations from a re-analysis of the deposited data

How the results depend on the processing

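PRSS22 and KLK6 kept direction and call in all 17 alternative fits, and PRSS8, TMPRSS2, KLK10 and SPINT1 stayed uncalled with the same direction. The number of members called higher was 1 in place of 3 with upper-quartile scaling, with limma on log2(FPKM + 1), with limma on log2(FPKM + 0.1) and with the local-median offset, and lay between 1 and 4 when single libraries were left out, as ST14, SPINT2 and KLK11 lost or gained the call. The number called lower was 1 throughout. Over all genes, 1795 were higher and 1784 lower. These counts were 733 and 706 with limma on log2(FPKM + 1), 777 and 747 on log2(FPKM + 0.1), and 1101 higher with the local-median offset. Without single libraries they lay between 967 and 1801 and between 1044 and 2083, lowest without OE-MMP28 replicate 2, and the higher count was 1131 without Vector replicate 3. KLK5 was left out by the filter on a mean CPM of at least 1 and lost the call in limma on log2(FPKM + 0.1), so that the count of other kallikreins called lower was 0 there. The count of other inhibitors called lower was 0 with the local-median offset. The count of receptors and substrates called higher was 1 in both limma fits on FPKM and between 1 and 6 without single libraries.

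Directions turned for ST14 (-0.058), APLP2 (-0.15), TMPRSS4 (-0.25), EPCAM (0.28) and SCNN1A (0.030) with the local-median offset, for TMPRSS4 (-0.087) and MST1R (-0.047) without Vector replicate 1, and for SCNN1A without Vector replicate 2 (0.12) and without OE-MMP28 replicate 1 (0.047). Over the libraries left out, TMPRSS4 lay between -0.087 and 0.594, MST1R between -0.047 and 0.224 and SCNN1A between -0.209 and 0.122. The log2 difference of the PRSS8 to SPINT1 ratio, -0.39, was 0.022 without Vector replicate 1 and 0.082 without OE-MMP28 replicate 3, and lay between -0.80 and 0.082 over the libraries left out. That of PRSS8 to SPINT2 lay between -1.43 and -0.61. The cause was not tested where none is shown by construction.

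Same-numbered libraries did not deviate together (correlations of 0.0168, 0.00798 and -0.0876 across genes), so the numbers were not taken as pairs. With the replicate number as a block, 1844 genes were higher and 1841 lower, with the same 3 and 1 counts of members, and ST14 had an adjusted p of 0.00637. Counts were low for PRSS8 (9 to 38 per library) and KLK5 (1 to 23), and the part of depth in their values was not tested.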

Other observations

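Some related genes had too few counts to be tested and were chosen here after their values were seen. TMPRSS6, the hepatic protease matriptase-2, had 4, 8 and 10 counts in the Vector libraries and 0, 1 and 4 in the OE-MMP28 libraries. CORIN, a cardiac transmembrane protease, had 3, 2 and 3 counts against 0 in all 3 OE-MMP28 libraries. The limit of 3 counts holds for a count of 0 in a single library, not for the 3 libraries together. F2RL2, the gene of the thrombin receptor PAR3, had 2, 2 and 3 counts against 7, 6 and 9.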
